A study of Mus musculus with 24 samples.

Results

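Wild-type MEFs, fibroblasts cultured from mouse embryos, that received dexamethasone and bacterial lipopolysaccharide together were compared with vehicle-treated cells of the same genotype. The comparison rests on 6 of the 24 RNA-seq libraries of the series, chosen by their sample titles: 3 of wild-type cells with dexamethasone and LPS and 3 of wild-type cells with vehicle. The question was what state the cells were in with both agents present. Genes could be still induced, back at the vehicle level, or detected as changed only with the combination.

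The Dex and LPS cells (genotype GR wt/wt, as all groups named wild type here) had 1 uM dexamethasone (Dex, a synthetic glucocorticoid) in ethanol for 16 h and LPS at 100 ng/ul, as the labels give it, for 6 h. The LPS cells had ethanol for 16 h and LPS for 6 h, the Dex cells had Dex for 16 h, and the vehicle cells had ethanol for 16 h. All groups shared the C57BL/6 strain, male embryos of day 13.5 with head and inner organs removed, and 7 days of culture in medium with serum. The homozygous glucocorticoid receptor mutant named GR Zn/Zn in the labels, with Dex and LPS or with vehicle, served for 1 further comparison with 3 libraries a group. The labels leave unstated whether a replicate is its own embryo or culture. The p-values thus reflect the spread among these libraries, which may be technical, and a genotype effect cannot be told apart from one of the individual embryos.

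Dex acts through the glucocorticoid receptor (GR, encoded by Nr3c1), which enters the nucleus when bound to its ligand, activates genes with glucocorticoid response elements and lowers the output of many inflammatory genes. LPS acts through Toll-like receptor 4, which switches on the transcription factors NF-kB and AP-1 and, through IRF3 and secreted interferon, the interferon-stimulated genes. Fibroblasts are a known source of chemokines, prostaglandins and acute phase proteins when they sense LPS.

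Read counts on the strand of the transcript totalled 23.0, 23.2 and 58.0 M in the Dex and LPS libraries and 20.3, 22.3 and 23.5 M in the vehicle libraries, and 15221 genes passed the filter on low counts. The deepest Dex and LPS library, replicate 3, carries a library number from a later series than the other 5. The Dex and LPS libraries spread far more than the vehicle libraries: the chi-square of their counts per degree of freedom was 19.0 to 56.3 between pairs, against 1.73 to 2.44 between vehicle pairs. In replicate 1 the deviation from the group mean ran with transcript length, with a median log2 deviation of -0.23 in the 10% of genes with the longest transcripts and 0.21 in the 10% with the shortest. In replicate 3 it ran the other way, with 0.15 in the longest and -0.15 in the shortest. Replicate 2 had 0.09 in the longest and -0.02 in the shortest. Deviations from a mean of 3 libraries balance each other, so a shift in replicate 1 alone also gives the others the opposite sign. Counts are therefore given also without replicates 1 and 3. Leaving out both leaves a single Dex and LPS library, which the fit assumes to vary like the other groups. Counts are given too under a fit that weights each group by its own spread. Of 12 fibroblast markers, all passed the filter, and their summed level was 28006 to 32104 CPM (counts scaled to a common library size) with Dex and LPS and 30105 to 32368 CPM with vehicle. In bulk RNA, fewer cells of a type and less RNA per cell cannot be told apart.

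Relative to vehicle, 2497 of the 15221 genes were called higher with Dex and LPS and 2011 lower, which is 16.4% and 13.2% of the genes tested and 29.6% together. A gene was called at an adjusted p below 0.05 (edgeR quasi-likelihood test, Benjamini-Hochberg over all tested genes, spread shared by all 24 libraries), and adjusted p-values below are from that test. The median log2 change over all tested genes was 0.01. At least 2-fold higher were 558 genes (3.67%) and at least 2-fold lower were 288 (1.89%). With a limma-voom fit that weights each group by its own spread, 1884 were higher and 1263 lower, and 1436 and 994 when the 6 libraries were fitted alone. With upper quartile scaling 39.9% of the calls were higher, against 55.4% with TMM scaling. In none of these fits did a called gene turn to a call in the opposite direction.

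The 4 marker genes of the combined state did not all take the same course. Lcn2, which encodes lipocalin-2, a secreted protein that withholds iron from bacteria, stood at 39.4, 26.6 and 27.8 CPM with Dex and LPS, 4.48, 3.12 and 4.46 CPM with LPS, 0.643, 0.661 and 0.769 CPM with Dex, and 0.0475, 0 and 0.165 CPM with vehicle. Both agents together thus gave a level above either alone, with no overlap among the 4 groups, and the vehicle group held 5 reads in all. Its log2 change against vehicle was 7.70 ± 0.27 (SE; adjusted p = 8.1e-15), and its log2 change against LPS alone was 2.94 ± 0.17. Serpina3n, a secreted serine protease inhibitor of the acute phase response, had 67.5, 54.0 and 63.4 CPM with Dex and LPS, 5.07, 3.5 and 4.62 CPM with LPS, 17.5, 16.2 and 16.2 CPM with Dex, and 1.8, 1.96 and 2.15 CPM with vehicle. Again all 4 groups were apart, and the log2 change against vehicle was 4.91 ± 0.17 (adjusted p = 4.1e-16).

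Cxcl1, a chemokine that attracts neutrophils, followed LPS. It had 234, 197 and 210 CPM with Dex and LPS, 298, 303 and 321 CPM with LPS, 3.01, 1.90 and 2.67 CPM with Dex, and 1.71, 1.31 and 1.70 CPM with vehicle. Dex took off part of the LPS level (log2 change against LPS -0.52 ± 0.07, adjusted p = 8.9e-06), and the log2 change against vehicle was still 7.02 ± 0.11. Fkbp5 (chr17:28399094-28517527 on GRCm38), a co-chaperone of GR that dampens its ligand binding, followed Dex, with 253, 243 and 235 CPM with Dex and LPS, 34.9, 37.9 and 40.3 CPM with LPS, 310, 319 and 293 CPM with Dex, and 39.7, 42.0 and 42.2 CPM with vehicle. The combined level was below that with Dex alone (log2 change against Dex -0.34 ± 0.05, adjusted p = 3.3e-05) and 2.56 ± 0.06 above vehicle on the log2 scale. Nr3c1, the receptor gene itself, was lower, at 50.5, 66.8 and 72.7 CPM with Dex and LPS and 92.6, 89.9 and 86.8 CPM with vehicle, a log2 change of -0.50 ± 0.12 (adjusted p = 0.0043). With replicate 2 as the single Dex and LPS library the log2 change was -0.44 and no longer called (adjusted p = 0.064).

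**Figure D1:**
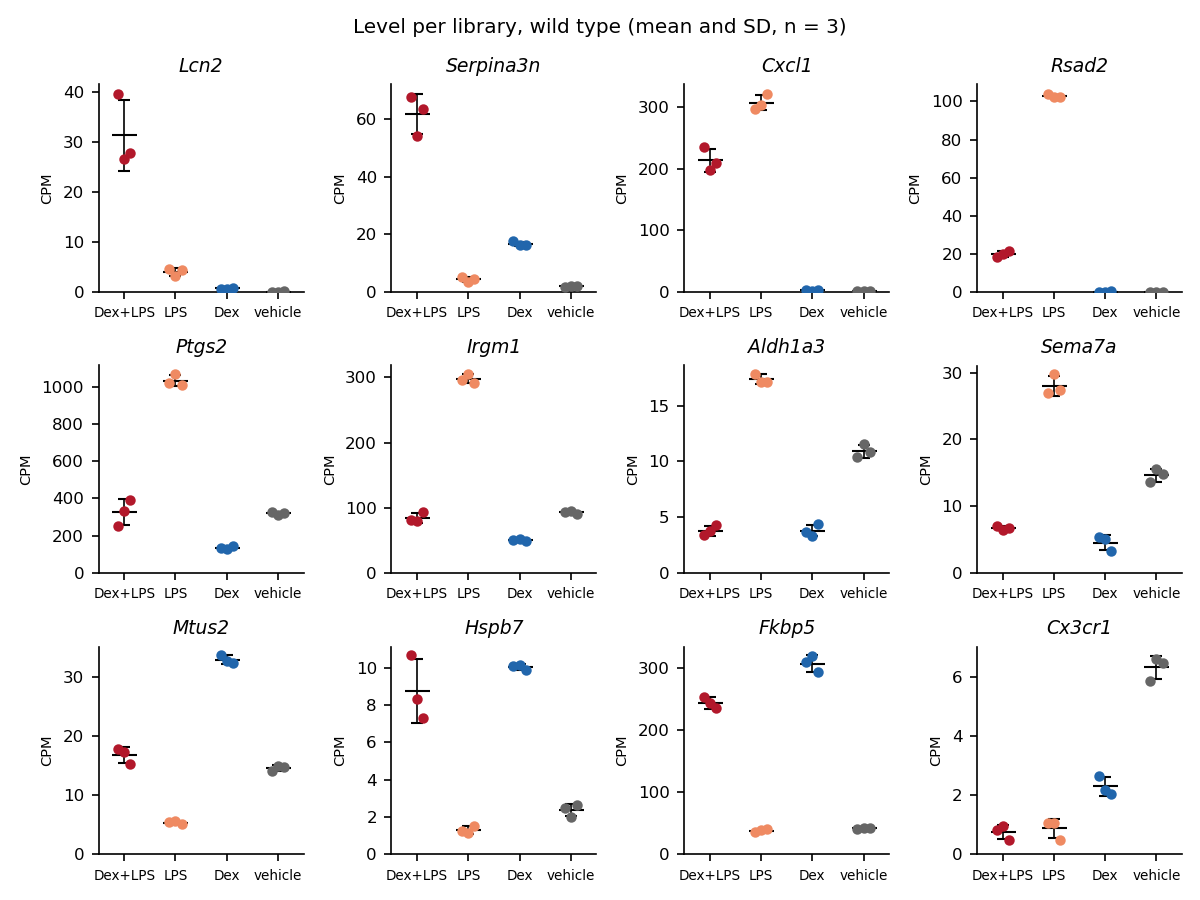
Level of 12 genes in each wild-type library in CPM (linear axis from 0), with points for libraries and a bar with whiskers for the mean and SD of 3, in Dex and LPS, LPS, Dex and vehicle. Lcn2 and Serpina3n are highest with both agents, Cxcl1 and Rsad2 lie between the LPS and vehicle levels, Ptgs2 and Irgm1 sit at the vehicle level, Aldh1a3, Sema7a and Cx3cr1 below it, Mtus2 just above it, and Hspb7 and Fkbp5 above it.

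The sequence just upstream of these genes differs in the letters that match known binding motifs. The windows below are the 250 bases before the RefSeq start of genes that stand for different courses, chosen because each holds a motif, with the matches in capitals. Serpina3n was raised by Dex and further with LPS, and its window holds a palindromic glucocorticoid response type match. In Lcn2 and Saa3, both higher with the 2 agents than with either alone, the capitals are a C/EBP type match and, in Saa3, also an interferon-response type match. Cxcl1 holds an NF-kB type match (overlapping hits on both strands), and Rsad2 and Irgm1 hold interferon-response and AP-1 type matches.
Serpina3n (GRCm38.p6 chr12:104406458-104406707, plus strand): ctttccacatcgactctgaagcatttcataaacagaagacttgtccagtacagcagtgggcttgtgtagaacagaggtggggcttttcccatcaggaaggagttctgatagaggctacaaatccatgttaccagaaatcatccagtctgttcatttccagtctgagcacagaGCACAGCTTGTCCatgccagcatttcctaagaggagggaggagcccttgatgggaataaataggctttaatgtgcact
Lcn2 (GRCm38.p6 chr2:32387740-32387989, minus strand): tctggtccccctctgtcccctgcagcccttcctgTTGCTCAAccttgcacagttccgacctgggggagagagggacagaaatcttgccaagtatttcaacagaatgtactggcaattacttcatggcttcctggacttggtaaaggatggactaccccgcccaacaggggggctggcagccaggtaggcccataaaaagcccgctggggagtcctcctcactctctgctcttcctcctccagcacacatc
Saa3 (GRCm38.p6 chr7:46715677-46715926, minus strand): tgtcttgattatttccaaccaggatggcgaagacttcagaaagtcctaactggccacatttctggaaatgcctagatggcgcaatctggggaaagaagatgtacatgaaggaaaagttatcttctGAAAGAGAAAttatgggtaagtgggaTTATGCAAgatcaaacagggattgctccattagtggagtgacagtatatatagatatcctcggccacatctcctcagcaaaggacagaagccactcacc
Cxcl1 (GRCm38.p6 chr5:90890995-90891244, plus strand): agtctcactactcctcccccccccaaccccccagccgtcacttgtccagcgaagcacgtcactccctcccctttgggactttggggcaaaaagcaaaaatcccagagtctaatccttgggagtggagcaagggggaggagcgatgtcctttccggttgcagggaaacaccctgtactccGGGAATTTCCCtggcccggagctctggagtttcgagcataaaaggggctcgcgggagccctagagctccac
Rsad2 (GRCm38.p6 chr12:26456453-26456702, minus strand): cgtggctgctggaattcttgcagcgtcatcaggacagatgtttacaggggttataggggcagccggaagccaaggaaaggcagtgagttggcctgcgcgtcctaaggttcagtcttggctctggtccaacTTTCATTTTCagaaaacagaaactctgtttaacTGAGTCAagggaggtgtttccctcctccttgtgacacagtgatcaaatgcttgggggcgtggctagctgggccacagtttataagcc
Irgm1 (GRCm38.p6 chr11:48871421-48871670, minus strand): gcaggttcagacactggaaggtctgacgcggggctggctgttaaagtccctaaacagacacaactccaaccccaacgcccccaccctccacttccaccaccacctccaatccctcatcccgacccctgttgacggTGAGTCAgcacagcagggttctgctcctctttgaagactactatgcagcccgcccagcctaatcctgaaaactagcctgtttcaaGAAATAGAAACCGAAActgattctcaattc

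The motifs searched on both strands were, with N for any base, GGGA and TTCC 2 bases apart (NF-kB type), GAAA and GAAA 2 bases apart (interferon-response type), GNACA and TGTNC 3 bases apart (glucocorticoid response type), TTGC and AA 2 bases apart (C/EBP type) and TGANTCA (AP-1 type). Of all 32851 windows of 250 bases in the RefSeq table, 1.21% held the NF-kB type, 2.98% the interferon-response type, 0.387% the glucocorticoid response type, 9.56% the C/EBP type and 6.75% the AP-1 type. The shares that follow are per gene. Of the 11029 tested genes with a window they were 1.46%, 3.15%, 0.326%, 9.06% and 5.86% in the same order. Among all 1003 still induced genes with a window they were 3.29%, 7.88%, 0.499%, 10.8% and 8.37%. Among all 285 genes returned after a rise with LPS they were 1.05%, 6.32%, 0%, 8.77% and 5.96%. Among the 100 genes with the largest rise that were still induced, the shares were 12%, 21%, 3%, 15% and 19%. Among the 100 returned genes with the largest fall from the LPS level, they were 0%, 11%, 0%, 9% and 11%. These sets of 100 are extremes ranked by different measures, so they do not stand for the full states. Rsad2 remained induced and Irgm1 returned to the vehicle level, although both windows hold the same 2 kinds of match. A match describes letters in this window, and the shares were not tested.

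LPS alone raised 2126 genes (14.0% of those tested) and lowered 1894 (12.4%). Of the raised genes, 1315 (61.9% of them, 8.64% of all tested) were still induced with Dex and LPS, meaning called higher than vehicle. Among these, 757 were not called against the LPS level, 399 were called below it and 159 above it, while 10.5% of all tested genes were called above and 10.6% below LPS alone. Another 352 (16.6%; 2.31% of all tested) had returned, meaning that they were called below the LPS level, not called against vehicle, and had a 95% interval of the log2 change within 1.5-fold of vehicle. Below vehicle stood 57 genes (2.68%; 0.374% of all tested), and 402 were unresolved (2.64%). Of the LPS-lowered genes, 1002 (52.9%) were still lower, 335 (17.7%) had returned, 112 (5.91%) stood above vehicle and 445 were unresolved. These are 6.58%, 2.2%, 0.736% and 2.92% of all tested genes. Without Dex and LPS replicate 1 the unresolved genes numbered 658 and 736 of the LPS-raised and LPS-lowered genes, and with group-weighted limma-voom 1597 and 1929. Without the 5 libraries of the series that stood apart (GR Zn/Zn Dex and LPS replicate 2, GR Zn/Zn LPS replicate 2, GR Zn/Zn vehicle replicate 1 and wild-type Dex and LPS replicates 1 and 3), which again leaves 1 wild-type Dex and LPS library, 684 LPS-raised genes had returned, 132 stood below vehicle and 953 were unresolved, and 214 LPS-lowered genes stood above vehicle and 1246 were unresolved.

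**Figure D2:**
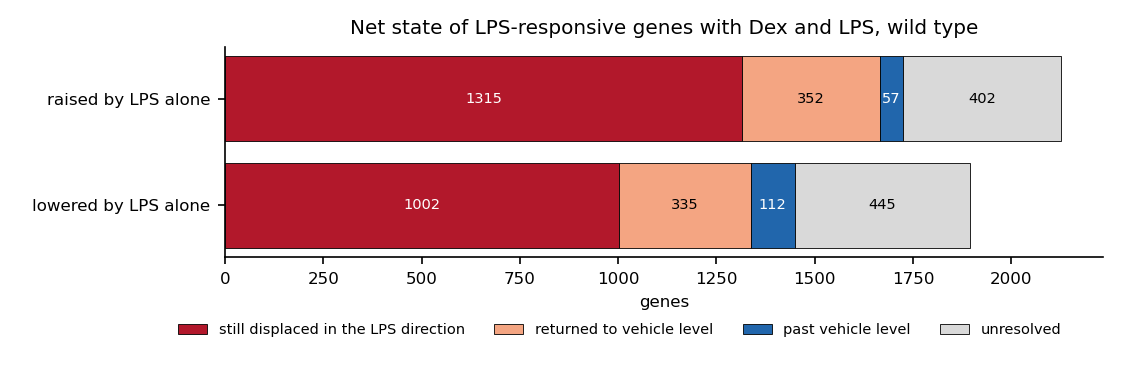
Number of genes raised (upper bar) or lowered (lower bar) by LPS alone in wild-type cells, split by their state with Dex and LPS against vehicle. The parts of the upper bar are 1315, 352, 57 and 402 genes, and those of the lower bar 1002, 335, 112 and 445.

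The still induced genes with the largest rises are described first. Saa3, an acute phase apolipoprotein, had 71.9, 51.3 and 48.2 CPM with Dex and LPS, 24.5, 21.2 and 29.7 CPM with LPS, 0.241, 0.0826 and 0.205 CPM with Dex, and 0, 0.0873 and 0 CPM with vehicle, where the group held 2 reads. The ratio to vehicle was 1845 (exact 95% counting interval 511 to 15242), and all Dex and LPS libraries lay above all LPS libraries. Acod1, whose product makes the antimicrobial metabolite itaconate, had 36.6, 36.5 and 41.1 CPM with Dex and LPS, 49.5, 50.2 and 53.4 CPM with LPS, and 0.0475, 0.0873 and 0.0413 CPM with vehicle, and Dex lowered it modestly (log2 change against LPS -0.42, adjusted p = 0.00093). Steap4, a metalloreductase, had 70.0, 70.9 and 84.2 CPM with Dex and LPS, 63.5, 65.1 and 67.2 CPM with LPS, and 0.285, 0.437 and 0.413 CPM with vehicle. Its combined level was not called different from LPS alone (log2 change 0.20, 95% interval -0.03 to 0.44), and its log2 change against vehicle was 7.36 ± 0.20.

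Other leading genes kept a smaller part of the LPS level. Nos2, the inducible nitric oxide synthase, had 16.1, 15.3 and 13.9 CPM with Dex and LPS, against 47.2, 41.0 and 51.9 CPM with LPS and 2 reads in the vehicle group, a ratio to vehicle of 501 (138 to 4138). Rsad2, the antiviral enzyme viperin, had 18.4, 19.7 and 21.4 CPM with Dex and LPS, against 104, 102 and 103 CPM with LPS and 0.142, 0.0873 and 0.0413 CPM with vehicle. It was thus lowered by 2.37 ± 0.15 on the log2 scale relative to LPS and still 6.91 ± 0.33 above vehicle. Il1b, the cytokine interleukin 1 beta, had 6.27, 4.93 and 6.34 CPM with Dex and LPS, against 36.4, 35.9 and 36.9 CPM with LPS, and no read in the vehicle group, which puts it at least 137-fold higher than vehicle (3 reads over the group as the floor). Clec4e, a receptor for microbial glycolipids, went the other way, with 16.4, 15.9 and 16.7 CPM with Dex and LPS, above 11.8, 13.1 and 13.9 CPM with LPS (log2 change 0.34, adjusted p = 0.018). Several of these genes are also active in myeloid cells, and the 21 leukocyte markers summed to 106 to 120 CPM with Dex and LPS and 114 to 119 CPM with vehicle. Their part in these results was not tested.

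Among genes still lower, Cx3cr1, the fractalkine receptor of macrophages, had 0.800, 0.940 and 0.478 CPM with Dex and LPS, 1.05, 1.07 and 0.489 CPM with LPS, 2.65, 2.19 and 2.05 CPM with Dex, and 5.89, 6.64 and 6.49 CPM with vehicle. Each agent alone lowered it, and the combined libraries overlapped that of LPS alone (log2 change against vehicle -3.08 ± 0.23). Palmd, which encodes palmdelphin, had 1.60, 2.02 and 1.93 CPM with Dex and LPS and 13.3, 15.4 and 13.2 CPM with vehicle (-2.86 ± 0.15). Heyl, a transcriptional repressor downstream of Notch, had 0.712, 0.717 and 0.585 CPM with Dex and LPS, 1.92, 2.22 and 1.74 CPM with LPS, 1.09, 1.49 and 1.08 CPM with Dex, and 3.94, 3.97 and 4.67 CPM with vehicle. Here the combined level lay below all libraries of either agent. The endothelial transcription factor gene Erg (-2.18 ± 0.16) and Hpgd, the main prostaglandin-degrading enzyme (-2.16 ± 0.24), also fell. Markers of the same cell types moved both ways. Of 7 endothelial markers tested 2 were higher and 3 lower, and Flt1 had 115, 134 and 137 CPM against 58.2, 55.8 and 55.3 CPM with vehicle. Of 19 leukocyte markers tested 6 were higher and 3 lower, where 16.4% and 13.2% of all tested genes were.

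Of the 352 genes that returned after a rise with LPS, 102 were called lower with Dex alone and 1 higher, where 5.24% and 7.92% of all tested genes were. Ptgs2 encodes cyclooxygenase 2, the inducible enzyme of prostaglandin synthesis. It had 254, 333 and 393 CPM with Dex and LPS, 1019, 1068 and 1013 CPM with LPS, 132, 126 and 145 CPM with Dex, and 328, 314 and 325 CPM with vehicle. The Dex and LPS libraries straddled the vehicle libraries, with a log2 change of 0.02 (95% interval -0.24 to 0.28). Irgm1, an interferon-inducible GTPase of cell-autonomous defence, had 80.4, 80.2 and 93.2 CPM with Dex and LPS, 296, 305 and 292 CPM with LPS, 50.6, 51.5 and 48.7 CPM with Dex, and 93.9, 95.4 and 90.8 CPM with vehicle. Its log2 change against vehicle was -0.14 (95% interval -0.33 to 0.05). Apol9a, an apolipoprotein L family gene, was at 1.20, 1.57 and 1.38 CPM with Dex and LPS, against 6.81, 5.46 and 5.06 CPM with LPS and 1.57, 1.44 and 1.20 CPM with vehicle. Slfn9, a Schlafen family gene, spread widely in the Dex and LPS group (10.6, 16.1 and 23.4 CPM) around the vehicle values of 18.6, 17.2 and 18.3 CPM. Its return is the least sharply measured of these, with an interval of -0.53 to 0.39. These intervals rest on the spread shared by all 24 libraries and can understate that of the Dex and LPS libraries.

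Genes that LPS lowered and that had returned with both agents are next. Mtus2, a microtubule-associated protein gene, had 17.8, 17.4 and 15.3 CPM with Dex and LPS, 5.35, 5.51 and 5.0 CPM with LPS, 33.8, 32.8 and 32.4 CPM with Dex, and 14.1, 14.9 and 14.7 CPM with vehicle. LPS alone lowered it and Dex alone raised it, and the combined level lay near vehicle (log2 change 0.20 ± 0.10, adjusted p = 0.13), although its 3 libraries lay just above the 3 vehicle libraries and it was called higher without Dex and LPS replicate 3 (adjusted p = 0.039). Daam2, a formin of the Wnt pathway, had 29.7, 36.9 and 36.7 CPM with Dex and LPS, against 15.7, 14.4 and 13.3 CPM with LPS and 36.8, 37.5 and 38.1 CPM with vehicle. Smad9, a transducer of BMP signals, had 8.98, 9.22 and 9.16 CPM with Dex and LPS, against 4.34, 3.67 and 3.81 CPM with LPS and 9.07, 8.86 and 10.4 CPM with vehicle. For each of these 3 genes Dex alone lay above vehicle. Of the 335 returned genes that LPS had lowered, 138 were called higher with Dex alone, where 7.92% of all tested genes were.

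A smaller set crossed the vehicle level. Aldh1a3, an enzyme of retinoic acid synthesis, had 3.38, 3.72 and 4.27 CPM with Dex and LPS, 17.9, 17.2 and 17.1 CPM with LPS, 3.70, 3.35 and 4.36 CPM with Dex, and 10.4, 11.5 and 10.8 CPM with vehicle. LPS alone raised it, and the combined level was not called different from Dex alone (log2 change against Dex 0.03, adjusted p = 0.85, 95% interval -0.17 to 0.24; against vehicle -1.48 ± 0.09). Sema7a, a semaphorin, had 7.03, 6.40 and 6.75 CPM with Dex and LPS, against 26.9, 29.7 and 27.5 CPM with LPS and 13.6, 15.5 and 14.8 CPM with vehicle (-1.11 ± 0.11). Of the 57 genes below vehicle, 53 were also called lower with Dex alone, where 5.24% of all tested genes were. The smaller members are less firm: Areg, a ligand of the EGF receptor, at 0.534, 0.224 and 0.514 CPM with Dex and LPS and 0.902, 0.961 and 0.662 CPM with vehicle, and Stc1, a secreted glycoprotein hormone, with a log2 change of -0.38 ± 0.13, each lost the call in some of the leave-out fits.

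The mirrored group rose above vehicle. Hspb7, a small heat shock protein, had 10.7, 8.33 and 7.30 CPM with Dex and LPS, 1.23, 1.11 and 1.52 CPM with LPS, 10.1, 10.2 and 9.89 CPM with Dex, and 2.47, 2.01 and 2.61 CPM with vehicle (log2 change against vehicle 1.85 ± 0.14). Aldh1a1, another retinaldehyde dehydrogenase, had 13.1, 13.0 and 16.6 CPM with Dex and LPS, against 0.868, 0.768 and 0.381 CPM with LPS and 1.8, 1.66 and 2.52 CPM with vehicle (2.79 ± 0.32), with the limit that it shares near-identical sequence with Aldh1a7. Klf15, a transcription factor that GR induces in many tissues, was at 2.89, 2.55 and 2.0 CPM with Dex and LPS and 0.760, 0.917 and 1.03 CPM with vehicle (1.36 ± 0.20). Of these 112 genes, 110 were called higher with Dex alone. The 1205 genes raised by Dex alone (7.92% of those tested) split in the combination into 819 higher than vehicle, 360 not called and 26 lower. Over all tested genes 16.4% were higher and 13.2% lower.

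Called only with the combination were 38 genes higher (0.25% of those tested) and 35 lower (0.23%). The rule was a call against vehicle, against LPS and against Dex in the same direction, and no call with either single agent. A gene without a call may still have moved with that agent. Both counts rest on the libraries and the fit. Against Dex alone, 10.3% of all tested genes were called higher and 9.35% lower in the combination, 19.6% together. With limma-voom weighted by group the counts were 7 and 4, without Dex and LPS replicate 1 they were 20 and 18, without replicate 2 they were 70 and 63, without replicate 3 they were 198 and 206, and without replicates 1 and 3 they were 7 and 14. Leaving out single LPS libraries gave 15 to 21 higher, and single Dex libraries 18 to 22 higher. Hp, which encodes the haemoglobin-binding protein haptoglobin, had 11.4, 8.24 and 10.0 CPM with Dex and LPS, 3.52, 4.31 and 4.73 CPM with LPS, 2.29, 2.19 and 1.79 CPM with Dex, and 2.23, 2.18 and 4.51 CPM with vehicle (log2 change against vehicle 1.70 ± 0.41, adjusted p = 0.0032). All Dex and LPS libraries lay above all others. Hp is abundant in liver, and the 18 liver markers summed to 2.62, 62.8 and 251 CPM in the Dex and LPS libraries and to 92.6, 94.3 and 201 CPM in the vehicle libraries. Hp was highest in the Dex and LPS library with the lowest liver sum, and among the vehicle libraries in the one with the highest. With replicate 2 as the single Dex and LPS library its log2 change was 1.42 and no longer called (adjusted p = 0.12). The part of liver RNA in the result was not tested.

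Slc6a12, a betaine and GABA transporter, had 2.58, 2.02 and 2.89 CPM with Dex and LPS, 0.959, 1.71 and 1.41 CPM with LPS, 0.965, 1.03 and 1.74 CPM with Dex, and 0.855, 0.306 and 1.08 CPM with vehicle (1.66 ± 0.30). On the lower side, Akap6, an anchor protein of protein kinase A, had 0.578, 1.07 and 1.17 CPM with Dex and LPS, 1.92, 1.92 and 1.47 CPM with LPS, 1.61, 1.94 and 1.49 CPM with Dex, and 2.04, 2.62 and 2.36 CPM with vehicle (-1.21 ± 0.21). Hhip, an antagonist of hedgehog ligands, had 1.65, 1.39 and 1.59 CPM with Dex and LPS and 3.18, 2.66 and 2.98 CPM with vehicle (-0.89 ± 0.15). Slc6a12, Akap6 and Hhip each stood outside the range of all other wild-type groups, at levels of a few CPM. The rule largely selects for such separation. All 38 higher and all 35 lower genes had no overlap with vehicle, as did 19.5% (higher) and 18.6% (lower) of all tested genes. Hp was among the 7 higher genes that the group-weighted fit also gave, and Slc6a12, Akap6 and Hhip were not among its 7 and 4.

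More genes lay beyond both single agents when a gene may also respond to one of them, a count chosen after the values were seen. Above vehicle, LPS and Dex, all 3 called, stood 174 genes (1.14%), of which 90 were also called higher with each agent alone. Below all 3 stood 147 (0.966%), 74 of them also called lower with each agent. The group-weighted fit gave 115 and 75, and leaving out Dex and LPS replicate 3 gave 381 and 372. Ptx3, the long pentraxin that marks microbes for uptake, had 565, 467 and 481 CPM with Dex and LPS, 200, 202 and 216 CPM with LPS, 71.1, 63.2 and 74.5 CPM with Dex, and 32.1, 29.9 and 32.7 CPM with vehicle, in 4 groups that did not overlap (log2 change against vehicle 3.99 ± 0.08). Slc10a6, a steroid sulfate transporter, had 6.54, 4.30 and 6.34 CPM with Dex and LPS, 0.411, 0.427 and 0.598 CPM with LPS, 1.93, 2.4 and 1.79 CPM with Dex, and 2 reads in the vehicle group. Kcnf1, a modifier subunit of potassium channels, had 6.40, 6.18 and 6.31 CPM with Dex and LPS, against 1.19, 0.896 and 1.85 CPM with LPS, 0.884, 0.702 and 1.08 CPM with Dex and 0.522, 0.218 and 0.331 CPM with vehicle. Susd2, a sushi domain membrane protein, had 7.52, 7.79 and 7.67 CPM with Dex and LPS, against 2.28, 2.18 and 2.66 CPM with LPS, 3.22, 2.48 and 3.08 CPM with Dex and 0.807, 0.655 and 0.992 CPM with vehicle. In all 4 genes each agent alone raised the level and both together raised it further. Other Serpina3 genes were also called above LPS and above Dex. Their log2 changes against vehicle were 6.14 for Serpina3f, 4.89 for Serpina3i, 3.5 for Serpina3g and 2.88 for Serpina3h, although Serpina3f was not called with Dex alone. Reads that map to more than 1 of these near-identical copies stayed out of the counts, so their separate values are uncertain.

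The lists below stand against 16.4% of all tested genes called higher, 13.2% called lower and an overall median log2 change of 0.01. Among the genes that GR is known to induce, 31 of 38 tested were called higher with Dex and LPS, 1 lower, with a median log2 change of 1.55. Among them the transcription factor Zbtb16 was at 5.65, 6.99 and 8.31 CPM with Dex and LPS, at 0 reads with LPS, at 14.5, 14.3 and 13.1 CPM with Dex, and at 0.0475, 0.0873 and 0.124 CPM with vehicle, so that LPS took off part of its Dex level (log2 change against Dex -0.98, adjusted p = 0.0013). The metallothionein Mt2 (4.53 ± 0.22) and the anti-inflammatory mediator Tsc22d3 (1.66 ± 0.06) rose, and Rgs2, a regulator of G-protein signalling, fell by 0.73 on the log2 scale. Of 29 acute phase and complement genes tested, 20 were higher and 1 lower, with a median of 0.64, including the lipopolysaccharide-binding protein Lbp (3.34 ± 0.21) and ceruloplasmin Cp (2.62 ± 0.17). On this list 15 were called above the LPS level and 2 below it, where 10.5% and 10.6% of all tested genes were.

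The NF-kB list kept its rise in 42 of 46 tested genes, with 2 lower and a median log2 change of 1.91. Below LPS alone 29 of the 46 were called, where 10.6% of all tested genes were. Tnf was at 16.3, 15.9 and 16.2 CPM with Dex and LPS, 50.4, 50.5 and 55.4 CPM with LPS, and 0.142, 0.218 and 0.248 CPM with vehicle. The cytokine gene Il6 (2.32 ± 0.13 against vehicle, -2.16 against LPS) was reduced more than the inhibitors of the pathway Nfkbia (3.26 ± 0.10, and -0.13 against LPS with adjusted p = 0.33) and Tnfaip3 (3.17 ± 0.08, and -0.46 against LPS) by these estimates, a difference between genes that was not tested. Il11 and Il33 fell, by 1.46 and 1.27, and the Il33 call was lost without vehicle replicate 1 (adjusted p = 0.074). Chemokines were higher in 20 of 26 and lower in 2, with a median of 2.65. Here 22 of the 26 were called below LPS, again against 10.6% of all tested genes. Ccl20, which attracts lymphocytes and dendritic cells, stood at 158, 123 and 149 CPM with Dex and LPS, against 211, 220 and 227 CPM with LPS and 1.09, 2.01 and 1.36 CPM with vehicle, while the stromal chemokines Cxcl12 and Cxcl14 fell by 1.02 and 1.44.

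Interferon-stimulated genes were called higher in 53 of 55 and lower in none, with a median of 2.12. With LPS alone the median log2 change against vehicle was 3.52. Called below LPS were 50 of the 55, against 10.6% of all tested genes. Ifit1 (4.21 ± 0.27 against vehicle, -3.23 against LPS) and Cxcl10 of the chemokine list (5.40 ± 0.18 and -2.74) were both below the LPS level and above vehicle. The 2 that were not called against vehicle, Irgm1 and the kinase gene Eif2ak2 (49.3, 65.0 and 73.7 CPM with Dex and LPS, 125, 123 and 112 CPM with LPS, 63.1, 53.9 and 56.6 CPM with vehicle), had both returned by the definition above.

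**Figure D3:**
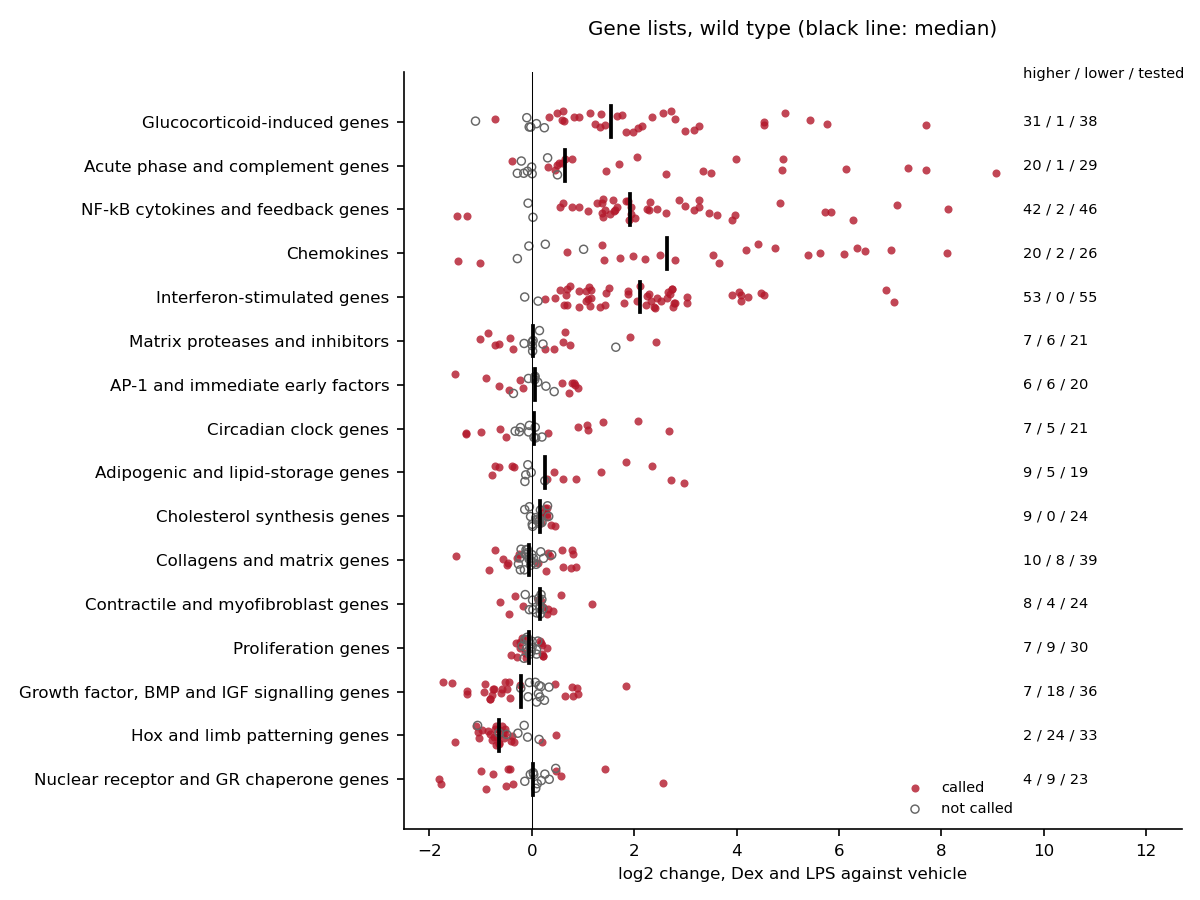
Log2 change with Dex and LPS against vehicle for each tested member of 16 gene lists in wild-type cells, filled where called and open where not, with the median as a black line and the counts of higher, lower and tested genes at the right. The glucocorticoid-induced, acute phase, NF-kB, chemokine and interferon lists have medians from 0.64 to 2.65, and the Hox list has -0.65.

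Of the developmental and growth lists, counts are given beside 16.4% higher and 13.2% lower over all tested genes. Of 33 Hox and limb patterning genes, 24 were lower and 2 higher, with a median of -0.65. Hoxd12 was at 3.69, 2.6 and 3.24 CPM with Dex and LPS, 3.20, 3.67 and 3.53 CPM with LPS, 7.96, 8.05 and 7.69 CPM with Dex, and 8.88, 9.08 and 9.55 CPM with vehicle, and its combined level was not called different from LPS alone. Hoxa10 had 12, 12.2 and 12.3 CPM with Dex and LPS, 10.4, 10.6 and 10.3 CPM with LPS, and 23.7, 26.2 and 26.4 CPM with vehicle, again with no call against LPS alone (adjusted p = 0.055). In the list of growth factor, BMP and IGF signalling genes, 18 of 36 were lower and 7 higher (median -0.22), among them the R-spondin receptor gene Lgr5 (-1.74 ± 0.16), the Wnt antagonist Dkk2 (-1.57 ± 0.07), the hepatocyte growth factor Hgf (-1.27 ± 0.14) and the EGF receptor ligand Ereg, which rose (1.85 ± 0.09). The nuclear receptor and GR chaperone list had 9 lower and 4 higher of 23 (median 0.03), with the oestrogen receptor gene Esr1 at -1.81 ± 0.26 and the mineralocorticoid receptor gene Nr3c2 at 1.43 ± 0.25, and without both replicates that stood apart 5 were lower and 5 higher.

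The other lists had called members in both directions or a median near 0, where 16.4% of all tested genes were higher and 13.2% lower. Circadian clock genes were higher in 7 and lower in 5 of 21: the period genes Per2 (2.68 ± 0.11) and Per1 (2.07 ± 0.09) rose and the repressors Nr1d1 and Nr1d2 fell by 1.29 each. Adipogenic and lipid-storage genes were higher in 9 and lower in 5 of 19, with the fatty acid carrier Fabp4 at 2.97 ± 0.12 and the adipogenic receptor gene Pparg at -0.71 ± 0.13. Matrix proteases and their inhibitors were higher in 7 and lower in 6 of 21: Mmp3 (stromelysin 1) had 22.8, 17.9 and 22.9 CPM with Dex and LPS, 57.9, 52.3 and 60.5 CPM with LPS, and 4.23, 3.62 and 3.93 CPM with vehicle, whereas the plasminogen activator Plat fell by 1.02 ± 0.05. AP-1 and immediate early factors were higher in 6 and lower in 6 of 20, with Egr3 at -1.49 ± 0.21 and Atf3 at 0.84 ± 0.09, and without both replicates that stood apart 3 were lower. Collagens and matrix genes were higher in 10 and lower in 8 of 39 (median -0.05), with the hyaluronan synthase Has2 at -1.48 ± 0.08 and periostin, Postn, at 0.86 ± 0.06. Contractile genes were higher in 8 and lower in 4 of 24, led by the fibronectin receptor subunit Itga5 (1.17 ± 0.04), and 5 were higher without replicate 1 and 13 without replicate 3. Cholesterol synthesis genes were higher in 9 and lower in none of 24 (median 0.17), with 15 not called. The higher genes numbered 11 without replicate 1, 13 without replicate 3 (with 1 lower) and 7 with group-weighted limma-voom. Their median log2 change against vehicle was -0.25 with LPS alone and 0.36 with Dex alone. Above LPS 19 of the 24 were called, where 10.5% of all tested genes were. Proliferation genes were higher in 7 and lower in 9 of 30, with log2 changes from -0.40 to 0.29, and they were 3 and 6 without replicate 1, 1 and 4 without replicates 1 and 3, and 3 and 4 with group-weighted limma-voom.

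Markers of other cell types gave these counts, against 16.4% higher and 13.2% lower over all tested genes: leukocyte 6 higher and 3 lower of 19 tested, endothelial 2 and 3 of 7, epithelial 0 and 2 of 4, skeletal muscle 1 and 0 of 5, cartilage and bone 1 and 3 of 12, nerve and glia 1 and 2 of 8, and liver 0 and 0 of 17. The leukocyte counts were 3 and 5 without replicate 1, and 1 and 2 without replicates 1 and 3. Of the 12 fibroblast markers 2 were lower and 0 higher. Cd3e of T cells, Krt14 of epithelium and Ckm and Pax7 of muscle had no read in the 6 libraries.

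In GR Zn/Zn cells the same comparison called 2767 genes higher (18.2%) and 2657 lower (17.5%), and the combined effect differed between genotypes in 1902 of the 15221 genes (12.5%), the effect in GR Zn/Zn being above that in wild type for 968 (6.36%) and below it for 934 (6.14%). These were 1736 and 1375 without the 5 libraries that stood apart, and 687 and 580 with group-weighted limma-voom. GR Zn/Zn vehicle replicate 1 is one of the deeper, later-numbered libraries, at 53.1 M reads. Not all of the 5 had a marked length-linked deviation. In this one the median log2 deviation was 0.01 for the longest and -0.06 for the shortest transcripts. The genes below were picked by their wild-type values, which enter that difference, so its p-value is not independent of that choice, while the GR Zn/Zn levels are. Fkbp5 had 41.9 ± 0.844 CPM with Dex and LPS and 44.8 ± 0.807 CPM with vehicle in GR Zn/Zn (SD, n = 3 each), a log2 change of -0.10, against 2.56 in wild type (difference -2.66 ± 0.08, adjusted p = 4.7e-16). Serpina3n had 6.17 ± 1.30 CPM with Dex and LPS and 1.59 ± 0.143 CPM with vehicle in GR Zn/Zn, a log2 change of 1.89, against 4.91 in wild type (difference -3.02 ± 0.27, adjusted p = 2.8e-08). Lcn2 rose in both genotypes, to 6.13 ± 0.571 CPM with Dex and LPS in GR Zn/Zn, and the 2 vehicle reads there left its difference unresolved (adjusted p = 0.90).

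Of the 352 genes returned in wild type, 273 were called higher than vehicle in GR Zn/Zn and none lower, where 18.2% and 17.5% of all tested genes were. Ptgs2 had 889 ± 166 CPM with Dex and LPS and 190 ± 19.0 CPM with vehicle in GR Zn/Zn (log2 change 2.22, against 0.02 in wild type), and Irgm1 had 344 ± 42.5 CPM with Dex and LPS and 38.4 ± 6.96 CPM with vehicle (3.15, against -0.14 in wild type). Aldh1a3, below vehicle in wild type, had 28.4 ± 1.36 CPM with Dex and LPS and 18.3 ± 1.37 CPM with vehicle in GR Zn/Zn (0.63, against -1.48). Hspb7, above vehicle in wild type, had 1.03 ± 0.206 CPM with Dex and LPS and 1.91 ± 0.0918 CPM with vehicle in GR Zn/Zn (-0.84, against 1.85). Cx3cr1 fell in both, by 3.25 in GR Zn/Zn and by 3.08 in wild type, with a difference of -0.17 ± 0.41 (adjusted p = 0.87). Of the 1315 still induced genes, 1207 were also called higher in GR Zn/Zn, where 18.2% of all tested genes were. The combined effect in GR Zn/Zn was called above that in wild type for 355 of the 1315 and below it for 100. Over all tested genes these shares were 6.36% and 6.14%. As the 1315 were picked by wild-type values, this is a description. Replicate 2 of the GR Zn/Zn Dex and LPS group had the same length-linked deviation as wild-type replicate 1 (median log2 -0.21 in the 10% of genes with the longest transcripts).

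**Figure D4:**
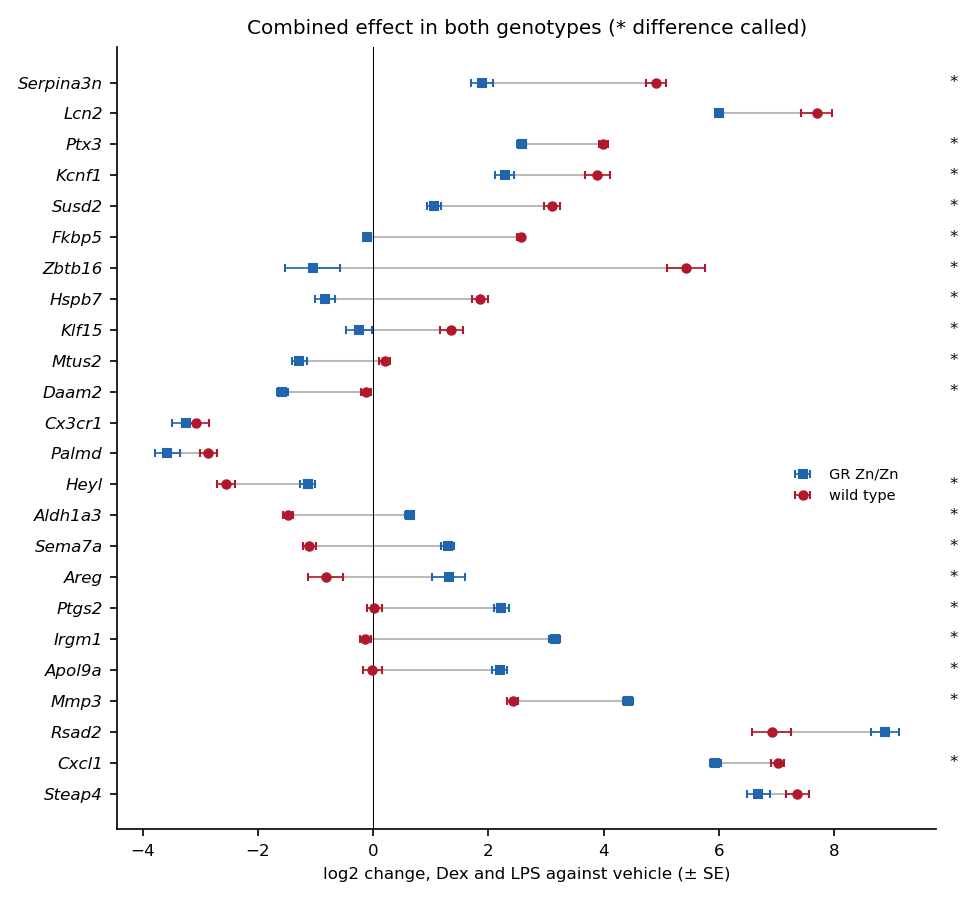
Log2 change with Dex and LPS against vehicle (± SE) in GR Zn/Zn (squares) and wild-type cells (circles) for 24 genes, joined by a line, with an asterisk where the difference was called. Fkbp5 lies at -0.10 and 2.56, Ptgs2 at 2.22 and 0.02, and Cx3cr1 at -3.25 and -3.08; Lcn2 in GR Zn/Zn has no error bar because its vehicle group held 2 reads.

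**Figure D5:**
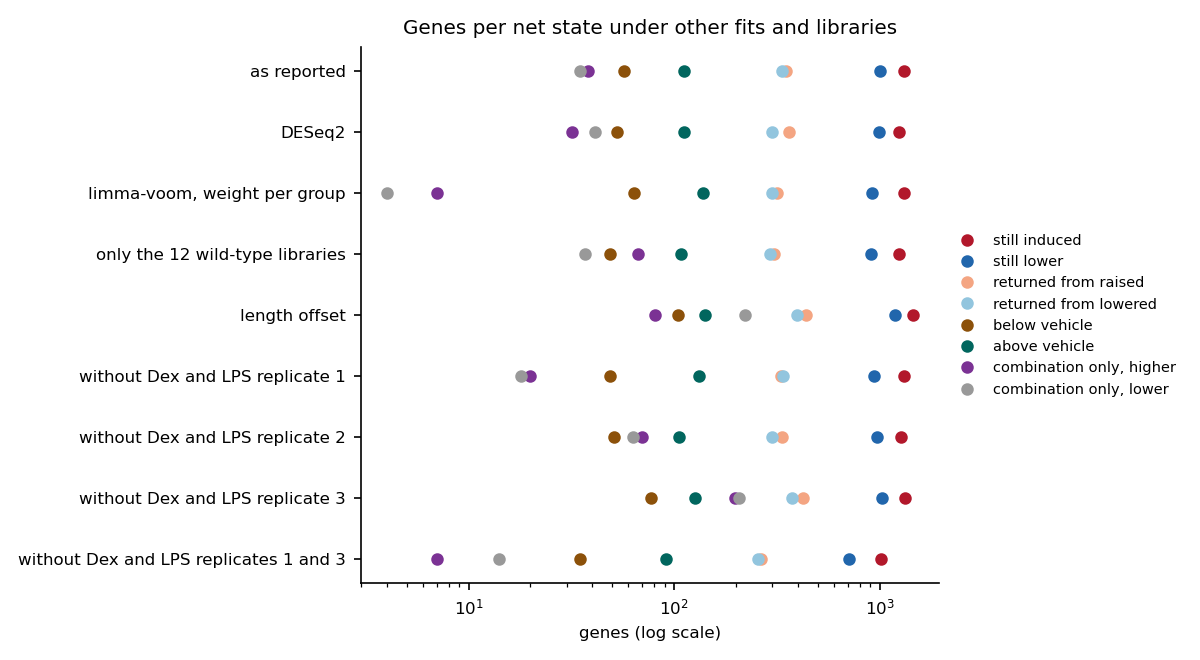
Number of genes in 8 net states (log axis) as reported, under other fits and without Dex and LPS libraries. Still induced genes number 1019 to 1456 in the rows shown, while the combination only counts range from 7 to 198 higher and from 4 to 221 lower.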

How the data were processed

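RNA-seq of mouse embryonic fibroblasts was analysed from the read counts per gene that the authors deposited, 1 file a library; the values are raw counts, and per the submitters' processing notes the tools were STAR (2.4.2a, also given as 2.4.2), DESeq2, DESeq and FastQC, with build mm10. The column counted on the strand opposite to the first read, fitting the stranded kit in the labels, was used; the other strand held 2.70 to 2.91% as many reads. Entries naming no gene stayed out of library sizes: 3.10 to 4.72% without a feature, 3.74 to 5.79% multimapping, 2.92 to 5.58% unmapped and 1.18 to 1.41% ambiguous. Another 96 columns of values and 4 tables of the whole series were not used.

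Genes were filtered with filterByExpr, leaving 15221 of 27088 with a read, scaled by TMM and fitted with edgeR 4.0.16 (robust quasi-likelihood, prior count 2, all 24 libraries, 1 coefficient a group; R 4.3.3), with Benjamini-Hochberg adjustment at 0.05. The fit was tested on simulated data. A floor of 3 reads equals 0.0518 to 0.159 CPM, and counting intervals (exact, 95%) cover counting error only. Alternatives were DESeq2 1.42.0, limma-voom 3.58.1 with a weight per group (added after seeing the data), RLE and upper quartile scaling, other filters, unstranded counts, an offset for transcript length, fewer libraries, and each library left out. Coordinates are GENCODE vM21 on GRCm38. Promoters are RefSeq on GRCm38.p6; the 50 bases after each start, first planned, were left out.

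Members and lists were chosen with earlier results of these data known. Named genes were the 4 markers and Nr3c1, the 10 largest rises and falls without overlap, up to 6 genes of each net state with at least 1 CPM, and up to 4 called and 2 uncalled members of each list. Outside that rule, and chosen after their values were seen, are Il6, Nfkbia, Tnfaip3, Il11, Il33, Ifit1, Cxcl10, Cxcl12, Cxcl14, Mt2, Tsc22d3, Rgs2, Lbp, Cp, Pparg, Nr1d1, Serpina3g, Serpina3h, and the genes described as above both single agents. Replicate numbers were not taken as pairs.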

Additional observations from a re-analysis of the deposited data

Results flagged for a closer look

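The combined effect of Dex and LPS differed between GR Zn/Zn and wild-type cells in 1902 genes by the test of the difference itself (edgeR, adjusted p below 0.05). Of the named genes, the log2 difference, GR Zn/Zn minus wild type, was -4.37 for Aldh1a1, -3.02 for Serpina3n, -2.66 for Fkbp5, -1.60 for Klf15, -1.56 for Slc6a12, -1.48 for Mtus2, -1.46 for Daam2 and -1.08 for Cxcl1. It was 3.29 for Irgm1, 2.41 for Sema7a, 2.21 for Apol9a, 2.20 for Ptgs2, 2.14 for Areg, 2.11 for Aldh1a3 and 0.61 for Nr3c1. Most of these genes were picked by their wild-type values, so the difference is a description for them. Cxcl1 in GR Zn/Zn had 366, 384 and 354 CPM with Dex and LPS and 6.09, 5.90 and 5.74 CPM with vehicle. Wild type had 234, 197 and 210 CPM with Dex and LPS and 1.71, 1.31 and 1.70 CPM with vehicle, so both Cxcl1 levels were higher in GR Zn/Zn.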

How the results depend on the processing

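Counts of genes higher and lower were 1436 and 994 in the 6 libraries alone and 1569 and 1125 without both Dex and LPS libraries that stood apart; lower genes numbered 1263 with group-weighted limma-voom and 1241 at an adjusted p below 0.01. Upper quartile scaling gave 1843 higher and 2774 lower, and 1506 still lower. At p below 0.01 there were 591 still lower, 221 and 195 returned from raised and from lowered, 21 below and 63 above vehicle, 10 and 16 with the combination only, and 99 and 77 above and below both agents. Without the 5 libraries of the series that stood apart these counts were 684 returned from raised, 132 below and 214 above vehicle, 953 and 1246 unresolved, 62 and 60 with the combination only, 293 and 237 beyond both agents, and 1736 genes with a higher effect in GR Zn/Zn. Without both wild-type ones they were 35 below vehicle, 1081 and 1159 unresolved, 7 and 14, and 90 and 66. With limma-voom they were 1597 and 1929 unresolved, 7 and 4, 115 and 75, and 580 lower in GR Zn/Zn. The length offset gave 105 below vehicle, 81 and 221 with the combination only and 436 below both agents. No filter gave 33 below vehicle, and the 12 wild-type libraries gave 67 with the combination only, higher.

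Leaving out 1 library at a time gave 1905 to 3122 genes higher and 1566 to 2474 lower, 1046 to 1329 still induced, 262 to 425 returned from raised, 34 to 77 below vehicle, 335 to 658 unresolved from raised, 759 to 1031 still lower, 207 to 374 returned from lowered, 72 to 132 above vehicle and 281 to 736 unresolved from lowered. The combination only counts ran from 15 to 198 higher and 18 to 206 lower, those beyond both agents from 119 to 381 above and 99 to 372 below, and those of the genotype difference from 827 to 1202 higher and 792 to 1205 lower.

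Signs turned only for 5 genes not called. Apol9a was 0.012 with the replicate block, 0.14 without both libraries and 0.14 without the 5, and -0.12 to 0.060 leaving out 1 library. Leaving out 1 library gave -0.017 to 0.27 for Eif2ak2, -0.13 to 0.18 for Ptgs2, -0.43 to 0.17 for Slfn9 and -0.096 to 0.015 for Smad9, and upper quartile scaling gave -0.031 for Ptgs2. The cause was not tested. Same-numbered libraries had deviations correlated at 0.14, -0.01 and 0.22, and differently numbered ones at -0.25 to 0.12. These values do not settle whether the numbers mark pairs, and they were not taken as pairs. A fit with the replicate block gave 2442 higher and 2053 lower. Of 75 called genes named, 70 kept their call under every alternative; Areg, Stc1, Il33, Hp and Nr3c1 did not. The fold of a gene whose vehicle group holds 3 reads or fewer is limited by counting error.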
